A study of Homo sapiens with 14 samples.

Results

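Nucleolar ribosome biogenesis genes encode the proteins that transcribe ribosomal RNA, modify and cut it, and assemble it into ribosomal subunits. The list held 45 such genes, chosen by name: small nucleolar ribonucleoprotein (snoRNP) proteins, factors of the small and the large subunit, nucleolar scaffold proteins and helicases, and RNA polymerase I. The array annotation gave a probe to 40 of them, out of 11679 genes tested in all. NPM1, DDX18, EBNA1BP2, GNL3 and WDR43 were not analysed here. The 4 groups were Mel202 cells in ICG-001 at 3 µM for 24 h, in DMSO, its solvent, for 24 h, in ICG-001 at 3 µM for 48 h, and in DMSO for 48 h. Mel202 is a human line from a recurrent uveal melanoma that had been irradiated. Every group carried the same GNAQ mutations and wild-type BRAF. ICG-001 is a small molecule known to bind the coactivator CREBBP and block its contact with beta-catenin. The study asked how expression in these cells differed with and without the compound, on 14 Illumina bead arrays of total RNA.

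Ribosome production begins in the nucleolus, where RNA polymerase I transcribes the ribosomal DNA into a long precursor. Box C/D snoRNPs methylate that precursor, box H/ACA snoRNPs convert uridines to pseudouridine, and large protein assemblies fold and cut it into the RNAs of the small and the large subunit. MYC, a transcription factor that binds the E-box CACGTG together with MAX, is known to activate genes of every one of these steps, and growing tumour cells express them strongly.

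The E-box was searched for in the promoter windows of the members, from 250 bases before to 50 bases after the RefSeq gene start (GRCh38.p14). CACGTG reads the same on both strands, so 1 search covers both. Of the 45 members, 39 had a window, and 19 of these (48.7%) held the motif, against 2396 of 27305 genes with a window (8.77%). Among ribosome biogenesis genes outside the list, 27 of 112 with a window held the motif (24.1%). RRP12, NOP58, BOP1, RRS1, DDX18 and NOLC1 had no window and were not searched. Among factors of the small subunit 9 of 13 with a window held the motif, and among RNA polymerase I genes 0 of 5. The 30 bases around the motif are shown for members whose transcript differed between ICG-001 and DMSO, 5′ to 3′ on the strand of the gene, with the E-box in capitals, the position on GRCh38.p14 and the distance of the first E-box base from the start. A match is a run of letters and does not show that MYC binds there.
FBL, chr19:39846356-39846385, minus strand, motif 6 bases after the start: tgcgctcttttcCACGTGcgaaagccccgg
NAT10, chr11:34105602-34105631, plus strand, 15 before the start: aatgcgcttgcgCACGTGctgtctaccagt
NOL6, chr9:33473894-33473923, minus strand, 13 after the start: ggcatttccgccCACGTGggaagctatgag
PES1, chr22:30591880-30591909, minus strand, 13 after the start: tccttggcagggCACGTGcgggaggaagtg
RRP9, chr3:51941892-51941921, minus strand, 5 before the start: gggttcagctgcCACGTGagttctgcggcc
UTP20, chr12:101280083-101280112, plus strand, 10 before the start: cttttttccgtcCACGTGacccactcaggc
UTP4, chr16:69132621-69132650, plus strand, 16 before the start: agagcgcgcgcgCACGTGgggccggggcgg
DDX21, chr10:68956604-68956633, plus strand, 31 before the start: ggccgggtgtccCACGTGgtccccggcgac

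Values are log2 signal after background correction and quantile normalization, and a log2 change is the ICG-001 mean minus the DMSO mean. Arrays that share a title number were averaged to 1 replicate, which left n = 3 for ICG-001 and n = 2 for DMSO at each time. Arrays are numbered within their group in accession order. Nothing in the labels tells whether replicates came from separate cultures. The p-values therefore reflect only how far these samples vary, and that variation may be technical. Per array, 17619 to 20124 probes had a detection p-value below 0.05, and 38 to 40 of the 40 members were among the genes detected. The 4 arrays whose titles end in b, 1 in each group, stood apart, with 13608 to 14060 probes at a detection p-value below 0.01, against 15294 to 17374 on the other 10. Median raw signals were 120.0 to 126.8 for ICG-001 and 126.9 to 134.9 for DMSO at 24 h, and 113.1 to 129.3 for ICG-001 and 131.1 to 139.1 for DMSO at 48 h. Of 7 melanocyte markers, 6 were annotated, and all 6 (MITF, TYRP1, PMEL, MLANA, SOX10 and TYR) lay above the filter on dim probes. Of the fibroblast markers 2 of 6 lay above it, COL1A1 and LUM, with a mean log2 signal of 5.89 to 6.37 in ICG-001 and 7.10 to 7.37 in DMSO over both times. Of the endothelial, immune, epithelial and retinal pigment epithelium markers, 1, 2, 1 and 4 of 5 each lay above it. In the mean effect over both times, 19.2% of all genes tested fell and 22.6% rose. Beside these shares, 3 of 6 melanocyte markers, 1 of 2 fibroblast markers (LUM, at a log2 change of -2.02) and 1 of 2 immune markers (CD68) fell. The epithelial marker CDH1 fell too, and 2 of 4 pigment epithelium markers rose. The part of these marker differences in the results was not tested.

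In Mel202 cells treated with ICG-001, a part of the nucleolar genes was higher and a smaller part lower than in DMSO. Averaged over 24 h and 48 h (the mean effect), 14 of the 40 members rose, 4 fell and 22 did not pass the test (limma, Benjamini-Hochberg adjusted p below 0.05 over all 11679 genes). That is 35% rising and 10% falling, beside 22.6% and 19.2% of all genes tested. With arrays scaled to their 75th percentile 12 members rose and 6 fell, beside 22.6% and 19.2% of all genes. Without background correction 15 of the 40 rose and 8 fell, beside 23% and 19.2%. In the authors' deposited table of normalized values 13 of the 40 rose and 8 fell, beside 21.4% and 17.7%. In both of these the share of members that fell was not below that of all genes. The largest rises were those of PES1, UTP20, WDR74, POLR1B and FBL, at log2 changes of 0.61 to 0.74. That order differed with the processing: UTP20, WDR74 and POLR1B are dim, and in the authors' deposited table they changed by 0.16, 0.16 and 0.15, less than BOP1 (0.47) or NAT10 (0.37). The falls were those of UBTF, PPAN, WDR12 and DDX21, at -0.46 to -0.25. The median log2 change was 0.15 over the members and 0.01 over all genes, and 26 members had a positive change. In bulk RNA, fewer cells that express a gene and less RNA of it per cell cannot be told apart.

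At each time alone fewer members passed. At 24 h, 7 rose (17.5%, beside 13.7% of all genes) and 2 fell (5%, beside 10.5%). At 48 h, 7 rose (17.5%, beside 14% of all genes) and 2 fell (5%, beside 11.7%). Fewer members passed without certain replicates, and in those fits fewer of all genes passed too. At 24 h, 3 members passed without the ICG-001 replicate averaged from arrays 1 and 2 (7.5%, beside 17.2% of all genes). Without the DMSO replicate averaged from arrays 2 and 3, 3 passed at 24 h (beside 13% of all genes). At 48 h, 5 passed without the ICG-001 replicate of array 1, and 5 without that averaged from arrays 3 and 4 (12.5%, beside 17.9% and 21.9%). Without the DMSO replicate averaged from arrays 1 and 2, or without that of array 3, 4 passed at 48 h (10%, beside 12% and 14.9%). In the mean effect, 12 to 17 members passed when any replicate was left out, beside 33% to 39.4% of all genes. Without 1 ICG-001 replicate, 35% to 42.5% of members passed in the mean effect, beside 37% to 39.4% of all genes. In those fits 11 to 14 of the 40 members rose, beside 20.2% to 21.6%, and 3 to 4 fell, beside 16.8% to 17.8%. The lowest share was that without the ICG-001 24 h replicate of array 3 (35%, beside 38.3%). Leaving out a DMSO replicate left only 1 in its group. With every array in the fit and a term for titles that end in b, 17 members passed at 24 h and 15 at 48 h (42.5% and 37.5%, beside 39.2% and 38.7% of all genes). Without the arrays ending in b, 6 passed at 24 h, 8 at 48 h and 16 in the mean effect (beside 22.7%, 25% and 40.7%). The single genes below are therefore described by the mean effect, with the values of every replicate at each time.

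**Figure D1:**
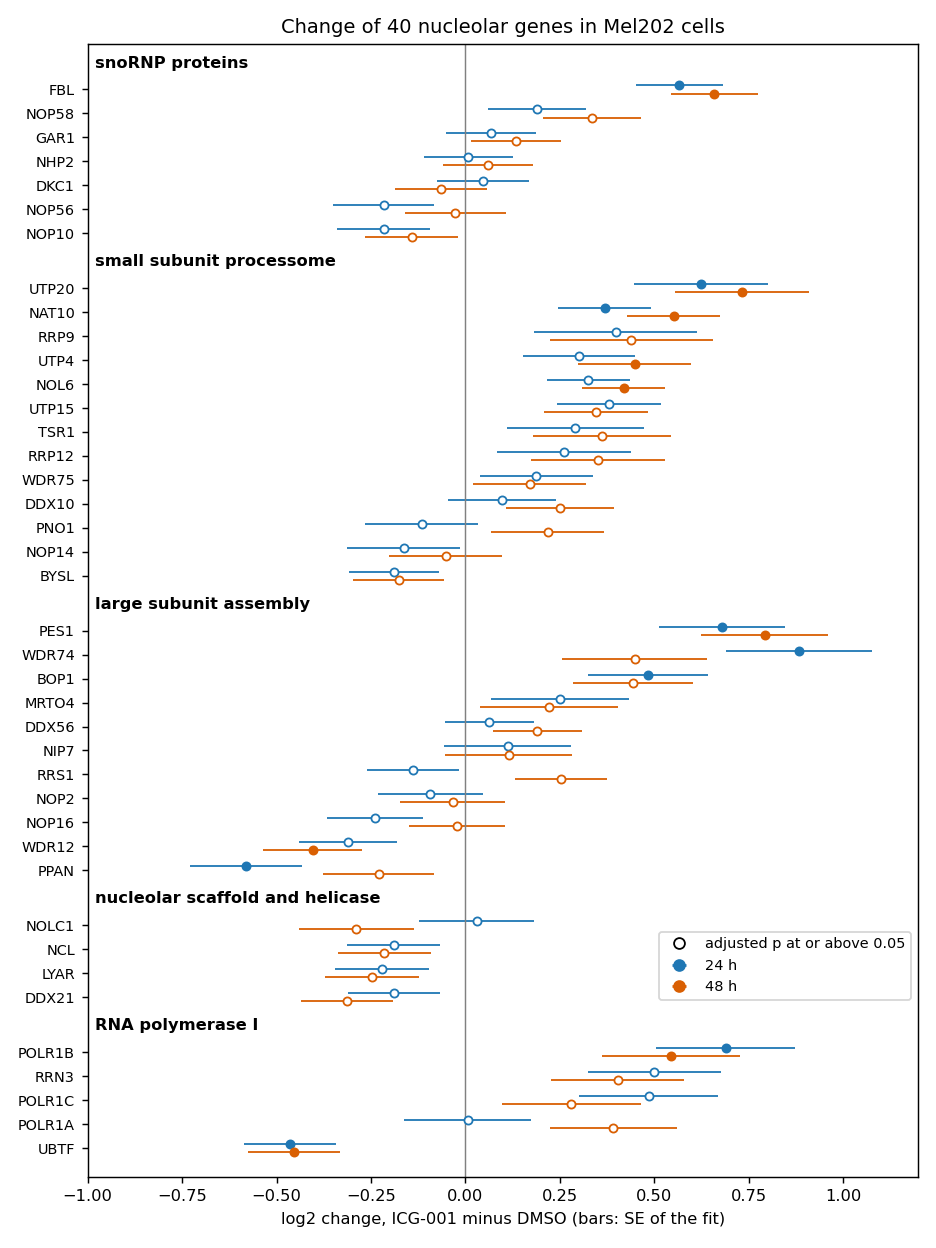
Log2 change, ICG-001 minus DMSO, of the 40 nucleolar genes at 24 h (blue) and 48 h (orange), grouped by role. Bars are the SE of the fit, and filled points have an adjusted p below 0.05. The 4 scaffold and helicase genes lie below 0 at 48 h, while 11 of the 13 small subunit genes lie above it.

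Among the 7 snoRNP proteins, 2 rose (28.6%) and 0 fell in the mean effect, beside 22.6% and 19.2% of all genes. Both that rose belong to box C/D particles. FBL, fibrillarin, the methyltransferase of these particles, had log2 signals of 11.93, 11.97 and 12.02 in ICG-001 at 24 h, against 11.40 and 11.42 in DMSO. At 48 h its values were 12.02, 12.13 and 11.91 in ICG-001, against 11.36 and 11.37 in DMSO. Every ICG-001 replicate lay above every DMSO replicate, and the groups were far apart beside their SD of 0.01 to 0.11. The mean effect on FBL was 0.61 ± 0.08 (SE), a 1.53-fold higher signal (adjusted p = 0.000188), and it was 0.57 at 24 h and 0.66 at 48 h. FBL also kept its call at either time under each of the 24 alternatives run. NOP58, a core protein of the same particles, rose by 0.26 ± 0.09 (adjusted p = 0.0398), a call lost in 8 of 10 fits without 1 replicate, with an adjusted p of up to 0.117, and with 75th percentile scaling (0.11). NOP56, its partner, had a log2 change of -0.12 (adjusted p = 0.331). None of the 4 box H/ACA proteins passed. DKC1, the pseudouridine synthase, had a log2 change of -0.01 with a 95% interval of -0.20 to 0.18, and NHP2 by 0.03 with an interval of -0.15 to 0.22. GAR1 had a log2 change of 0.10 and NOP10 of -0.18 (adjusted p = 0.363 and 0.122). In the authors' deposited table NOP10 passed as a fall, at -0.18 (adjusted p = 0.035), and GAR1 did not pass.

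Factors of the small subunit had a median log2 change of 0.33. Of 13 measured, 6 rose (46.2%) and 0 fell, beside 22.6% and 19.2% of all genes, and 11 had a positive change. UTP20, a large scaffold protein of the small subunit processome, had log2 signals of 5.96, 5.77 and 5.67 in ICG-001 and 5.30 and 5.05 in DMSO at 24 h. At 48 h it had 5.94, 6.05 and 5.90 in ICG-001, and 5.54 and 4.92 in DMSO. The groups did not overlap at either time, although the DMSO values at 48 h were spread widely (SD 0.44). Its mean effect was 0.68 ± 0.13 (adjusted p = 0.00149), a 1.60-fold higher signal. The probe was dim: it was detected on 8 of 8 ICG-001 arrays and 4 of 6 DMSO arrays, and in the authors' deposited table of normalized values the change was 0.16.

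NAT10, which acetylates cytidines of the small subunit RNA, had 9.73, 9.71 and 9.62 in ICG-001 and 9.41 and 9.23 in DMSO at 24 h. At 48 h its log2 signals were 9.79, 9.73 and 9.55 in ICG-001 and 9.12 and 9.16 in DMSO. The ICG-001 replicates were again all above the DMSO replicates, and the mean effect was 0.46 ± 0.09 (adjusted p = 0.00165). NOL6, whose yeast counterpart Utp22 is a processome subunit, rose by 0.37 ± 0.08 (adjusted p = 0.00306). UTP4 and UTP15, which belong to the subcomplex that links transcription of ribosomal DNA with processing, rose by 0.37 ± 0.10 and 0.36 ± 0.10 (adjusted p = 0.0146 and 0.0118). Without the DMSO 48 h replicate of array 3 the adjusted p of UTP15 was 0.0588, and without the DMSO 48 h replicate of arrays 1 and 2 that of UTP4 was 0.0657. UTP4 was also lost without the DMSO 24 h replicate of arrays 2 and 3, at a change of 0.25. UTP15 had a change of 0.23 in the authors' deposited table. RRP9, a protein of the U3 snoRNP, rose by 0.42 ± 0.15 (adjusted p = 0.0456), a call lost in 7 of 10 fits without 1 replicate, and its change was 0.14 in the authors' deposited table. TSR1 and RRP12, which act in pre-40S assembly, had log2 changes of 0.33 and 0.31 without passing (adjusted p = 0.0622 and 0.0711). WDR75 had 0.18 and the helicase DDX10 had 0.17. The late assembly factors PNO1 and BYSL had 0.05 and -0.18, and NOP14 had -0.11. In the authors' deposited table BYSL passed as a fall, at -0.16 (adjusted p = 0.0252), while PNO1 and NOP14 did not pass.

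Among 11 factors of the large subunit, 3 rose (27.3%, beside 22.6% of all genes) and 2 fell (18.2%, beside 19.2%). The median log2 change of the 11 was 0.11. PES1, BOP1 and WDR12 form the PeBoW complex, which is needed to process the RNA of the large subunit, and their transcripts did not move one way. PES1 had log2 signals of 8.97, 8.81 and 8.67 in ICG-001 and 8.30 and 7.97 in DMSO at 24 h. At 48 h it had 8.65, 8.74 and 8.89 in ICG-001 and 8.19 and 7.74 in DMSO. Every ICG-001 value lay above the DMSO values of its time, and the mean effect was 0.74 ± 0.12, a 1.67-fold higher signal (adjusted p = 0.000613). In the authors' deposited table the change of PES1 was 0.49. BOP1 had 12.39, 12.47 and 12.39 in ICG-001 and 12.23 and 11.64 in DMSO at 24 h, then 12.38, 12.48 and 12.32 in ICG-001 and 11.95 and 11.94 in DMSO at 48 h. The ICG-001 replicates of BOP1 were close together at 24 h (SD 0.05), while the 2 DMSO replicates differed by more than any others of this gene (SD 0.42). BOP1 rose by 0.46 ± 0.11 in the mean effect (adjusted p = 0.00687).

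WDR12, the third partner, had log2 signals of 10.38, 10.44 and 10.49 in ICG-001 and 10.63 and 10.87 in DMSO at 24 h. At 48 h it had 10.14, 10.39 and 10.15 in ICG-001 and 10.69 and 10.57 in DMSO. Every ICG-001 replicate was below every DMSO replicate, and WDR12 fell by 0.36 ± 0.09 on the log2 scale (adjusted p = 0.00934). A less bright WDR12 probe had a log2 change of -0.05, and with the mean of both probes the adjusted p was 0.0723. PPAN, a factor of early large subunit assembly, had 7.45, 7.72 and 7.56 in ICG-001 and 8.03 and 8.29 in DMSO at 24 h. At 48 h PPAN had 7.56, 7.41 and 7.42 in ICG-001 and 7.86 and 7.53 in DMSO, so the groups were apart at 24 h and overlapped at 48 h. The mean effect on PPAN was -0.41 ± 0.10 (adjusted p = 0.00934). It was 0.0507 without the DMSO 48 h replicate of arrays 1 and 2, and the change was -0.23 in the authors' deposited table.

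WDR74 is the counterpart of yeast Nsa1, a factor of large subunit assembly. Its log2 signals were 6.13, 6.12 and 5.97 in ICG-001 against 5.05 and 5.33 in DMSO at 24 h. At 48 h they were 5.60, 5.72 and 6.03 in ICG-001 against 5.02 and 5.65 in DMSO, and here the groups overlapped. The log2 change was 0.88 at 24 h and 0.45 at 48 h, and the mean effect was 0.67 ± 0.14 (adjusted p = 0.00263). WDR74 was detected on 8 of 8 ICG-001 arrays and 3 of 6 DMSO arrays, and its change in the authors' deposited table was 0.16 in the mean effect and 0.21 at 24 h. The other large subunit factors did not pass. MRTO4 had a mean log2 change of 0.24, DDX56 of 0.13, NIP7 of 0.11, RRS1 of 0.06, NOP2 of -0.06 and NOP16 of -0.13. Their sizes are loosely fixed: without 1 replicate MRTO4 ranged between 0.09 and 0.39, and NIP7 between 0.03 and 0.20.

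The 4 nucleolar scaffold proteins and helicases had negative changes in the mean effect and at 48 h. Of them 1 fell in the mean effect (25%, beside 19.2% of all genes) and 0 rose (beside 22.6%). At 24 h NOLC1 had 0.03. NCL, nucleolin, an abundant protein that binds the precursor RNA, had log2 signals of 11.95, 12.06 and 12.09 in ICG-001 and 12.34 and 12.11 in DMSO at 24 h. At 48 h NCL had 11.96, 12.08 and 12.10 in ICG-001 and 12.33 and 12.20 in DMSO. Each ICG-001 value was below each DMSO value, by as little as 0.02 at 24 h, and the mean effect of -0.20 ± 0.09 did not pass (adjusted p = 0.0843). With arrays scaled to their 75th percentile NCL passed, at -0.26 (adjusted p = 0.0317). DDX21, a helicase that acts in ribosomal RNA transcription and processing, had 11.60, 11.69 and 11.64 in ICG-001 and 11.75 and 11.92 in DMSO at 24 h. It had 11.46, 11.69 and 11.66 in ICG-001 and 11.95 and 11.88 in DMSO at 48 h. DDX21 fell by 0.25 ± 0.09 on the log2 scale (adjusted p = 0.0361), a call lost in 7 of 10 fits without 1 replicate, with an adjusted p of up to 0.108. LYAR had -0.23 (adjusted p = 0.0519), and -0.27 with that scaling (adjusted p = 0.0485). NOLC1, which shuttles between nucleolus and cytoplasm and binds snoRNPs, had -0.13 (adjusted p = 0.364). In the authors' deposited table NCL, LYAR and DDX21 passed, at -0.21, -0.22 and -0.24 (adjusted p = 0.018, 0.0111 and 0.00616). NOLC1 had -0.10 there and did not pass. With the mean of all probes of a gene NCL and LYAR passed too, at -0.36 and -0.31 (adjusted p = 0.0356 and 0.00712).

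In the RNA polymerase I group 3 of 5 genes rose and 1 fell (60% and 20%, beside 22.6% and 19.2% of all genes). POLR1B, a catalytic core subunit, had log2 signals of 6.27, 6.01 and 5.94 in ICG-001 and 5.17 and 5.60 in DMSO at 24 h. At 48 h it had 6.04, 6.06 and 6.31 in ICG-001 and 5.36 and 5.82 in DMSO. Every POLR1B value in ICG-001 exceeded those in DMSO of the same time, and it rose by 0.62 ± 0.13 (adjusted p = 0.00305), or by 0.15 in the authors' deposited table. POLR1C, a subunit shared with RNA polymerase III, rose by 0.38 ± 0.13 (adjusted p = 0.0349), a call lost in 7 of 10 fits without 1 replicate, with an adjusted p of up to 0.130. POLR1A, the largest subunit, had 5.70, 5.46 and 5.39 in ICG-001 and 5.65 and 5.37 in DMSO at 24 h. Its 48 h log2 signals were 5.92, 5.46 and 5.46 in ICG-001 and 5.26 and 5.18 in DMSO. The groups overlapped at 24 h and not at 48 h, and its mean effect of 0.20 ± 0.12 did not pass (adjusted p = 0.207).

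The initiation factors of RNA polymerase I went opposite ways. RRN3, which carries the polymerase to the promoter, had log2 signals of 9.06, 8.76 and 8.45 in ICG-001 and 8.31 and 8.20 in DMSO at 24 h. At 48 h RRN3 had 8.57, 8.65 and 8.92 in ICG-001 and 8.39 and 8.22 in DMSO. All ICG-001 values were above the DMSO values, and the mean effect was 0.45 ± 0.13 (adjusted p = 0.0136, and 0.0522 without the DMSO 48 h replicate of array 3). The genome holds pseudogene copies of RRN3, and whether its probe also reads them was not tested. UBTF, which binds the ribosomal DNA promoter and keeps it open, had 7.04, 7.15 and 6.99 in ICG-001 and 7.47 and 7.59 in DMSO at 24 h. It had 7.10, 7.17 and 7.04 in ICG-001 and 7.45 and 7.66 in DMSO at 48 h. The ICG-001 replicates lay below the DMSO replicates at both times, and UBTF fell by 0.46 ± 0.09 on the log2 scale, a 1.38-fold lower signal (adjusted p = 0.00162). In the authors' deposited table the change of UBTF was -0.22.

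**Figure D2:**
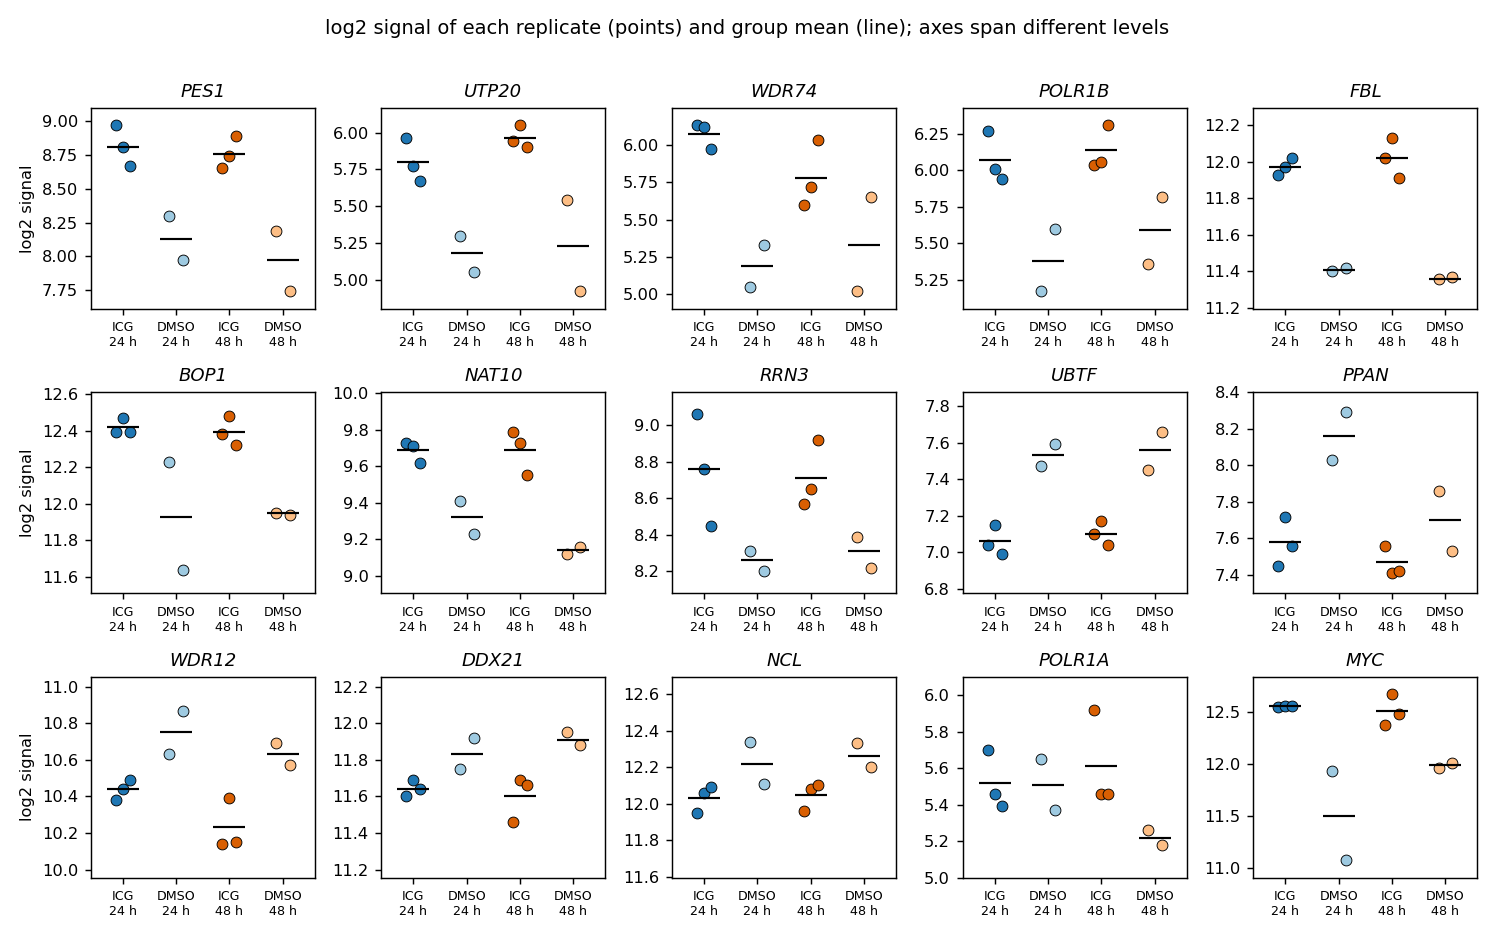
Log2 signal of every replicate (points) with the group mean (line) for 14 nucleolar genes and MYC, ICG-001 left of DMSO at each time. Each panel has its own axis range. ICG-001 points lie above all DMSO points at both times for PES1, UTP20, POLR1B, FBL, BOP1, NAT10, RRN3 and MYC, and below them for UBTF, WDR12, DDX21 and NCL.

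Changes at 24 h and 48 h had the same sign in 36 of the 40 members (90%), beside 78.3% of all genes. Of these, 24 were positive and 12 negative at both times. FBL, UTP20, NAT10, PES1 and POLR1B rose at both times (12.5% of members, beside 9.42% of all genes), and UBTF fell at both (2.5%, beside 6.95%). Of these 6, FBL kept both calls whichever replicate was left out. The others lost a call in at least 1 such fit. NAT10, at an adjusted p of 0.049 by limma at 24 h with all replicates, lost that call in 10 of 10 fits. Its 24 h change ranged between 0.28 and 0.46 over them. POLR1B, at 0.0488 at 48 h, lost that call in 7 of 10, with changes between 0.31 and 0.78 over all of them. In the authors' deposited table UTP20 passed at neither time (adjusted p = 0.0975 at 24 h and 0.0517 at 48 h). Nor did POLR1B (0.0683 and 0.123), while FBL, NAT10, PES1 and UBTF passed at both. Counting replicates alone, all ICG-001 values lay above all DMSO values at both times for 10 members (25%, beside 19.2% of all genes). They lay below them at both times for 6 members (15%, beside 15.9%). At 48 h alone, 18 members lay above (45%, beside 28.1%) and 7 below (17.5%, beside 26.3%), beside 54.4% of all genes in either direction. At 24 h alone, 12 lay above (30%, beside 27.4%) and 10 below (25%, beside 23.5%), beside 51% of all genes in either direction.

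No member differed between the 48 h and the 24 h effect (0 of 40, smallest adjusted p = 0.875 by limma, with 1 member, RRS1, at an unadjusted p below 0.05). Of all genes 0% passed that test. RRS1, a factor that brings the 5S ribonucleoprotein to the large subunit, had a log2 change of -0.14 at 24 h and of 0.25 at 48 h. In DMSO, 0 of 40 members differed between 48 h and 24 h (0.0342% of all genes did, 0.00856% higher and 0.0257% lower, and 4 members had an unadjusted p below 0.05). The members' median log2 change over time was -0.11 in DMSO, beside -0.00 over all genes, and 28 of the 40 were lower at 48 h. In ICG-001 over time it was -0.04, and 0 of 40 passed (0.146% of all genes did, 0.0856% higher and 0.0599% lower, and 1 member had an unadjusted p below 0.05).

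**Figure D3:**
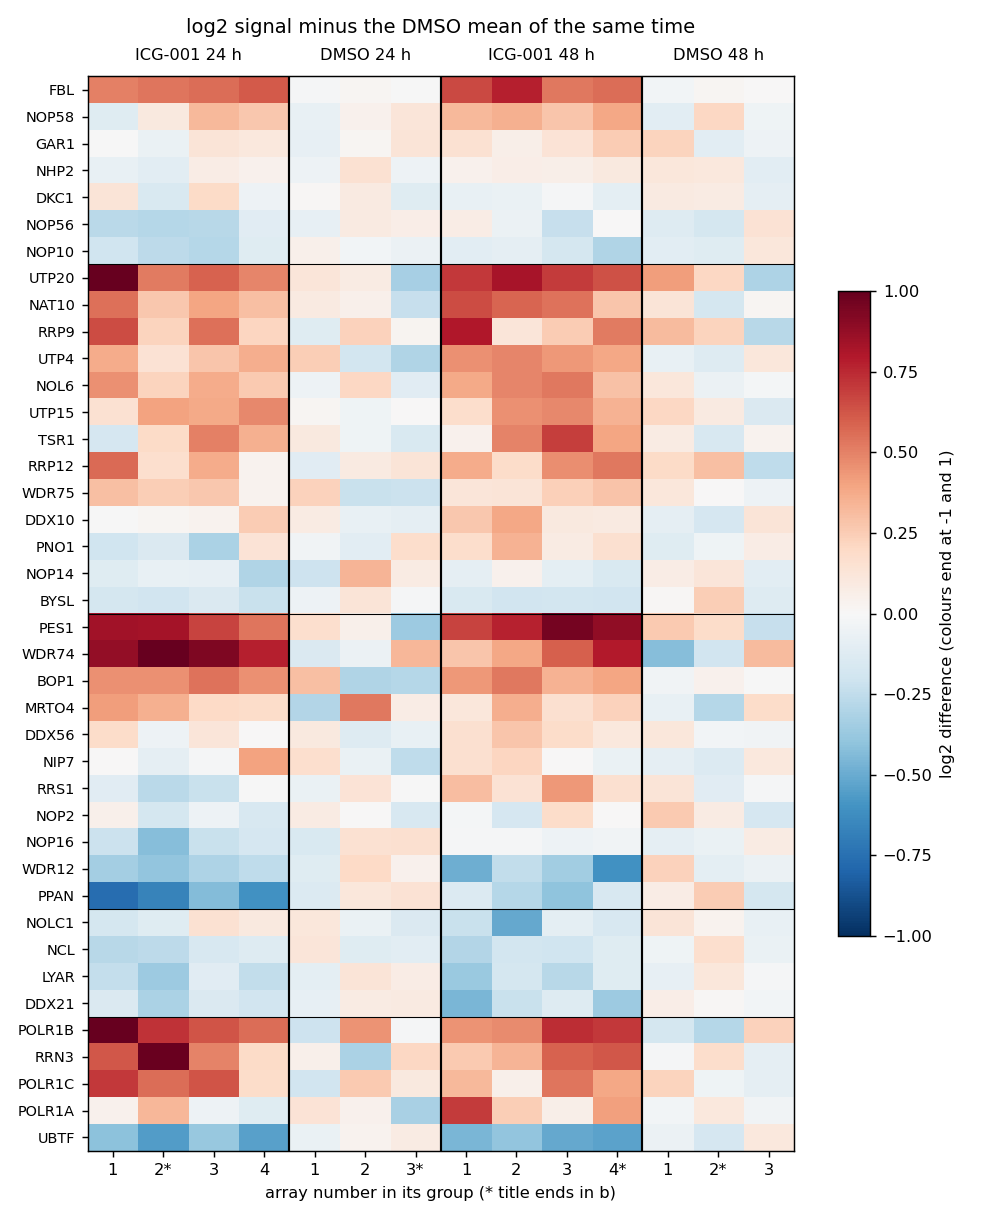
Log2 signal of the 40 nucleolar genes on each of the 14 arrays, minus the DMSO mean of the same time. Rows are grouped by role and a star marks an array whose title ends in b. PES1, FBL, UTP20 and POLR1B are above the DMSO mean on all 8 ICG-001 arrays, and UBTF and DDX21 below it.

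MYC itself was higher in ICG-001. Its log2 signals were 12.55, 12.56 and 12.56 in ICG-001 against 11.93 and 11.07 in DMSO at 24 h, and 12.37, 12.67 and 12.48 in ICG-001 against 11.96 and 12.01 in DMSO at 48 h. The ICG-001 values were nearly equal at 24 h, while the DMSO values there were far apart (SD 0.61). The change was 1.06 ± 0.20 at 24 h (adjusted p = 0.00456), 0.52 ± 0.20 at 48 h (adjusted p = 0.0849) and 0.79 ± 0.14 in the mean effect (adjusted p = 0.00139). A less bright MYC probe rose by 1.21 at 24 h, by 0.81 at 48 h (adjusted p = 0.00996) and by 1.01 in the mean effect, and with the mean of both probes MYC also passed at 48 h (0.66, adjusted p = 0.0203). Without the DMSO 24 h replicate of arrays 2 and 3, the 24 h change of MYC was 0.63, and without that of array 1 it was 1.49. Of 10 measured genes of the MYC network, MYC among them, 4 rose and 3 fell in the mean effect. These are 40% and 30%, beside 22.6% and 19.2% of all genes. MXD1 and MXD4, which compete with MYC for MAX and repress transcription, rose by 0.62 and 0.67 (adjusted p = 0.00117 and 0.000159). MXD3, of the same family, fell by 0.96 on the log2 scale (adjusted p = 5.25e-05). In the authors' deposited table these 3 changes were 0.25, 0.54 and -0.31. Among members that rose in the mean effect, 7 of 12 with a promoter window held the E-box (58.3%), among those that fell 1 of 4 (25%), and among those that did not pass 8 of 19 (42.1%). The differences between these shares were not tested. Among 30 MYC targets outside the nucleolus, 15 of 29 with a window held the E-box (51.7%). In the mean effect 8 of the 30 rose (26.7%) and 6 fell (20%), beside 22.6% and 19.2% of all genes. Their median log2 change was -0.06. EIF5A and EIF2S1, translation factors, rose by 0.86 and 0.62, and PRDX3, a mitochondrial peroxidase, fell by 0.72 on the log2 scale (adjusted p = 5.36e-05, 0.00139 and 0.00024). EIF2S1 had 0.37 in the authors' deposited table.

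Ribosome biogenesis genes outside the list of members were also measured. Of 132 such genes 129 were measured. In the mean effect 49 rose (38.0%) and 8 fell (6.20%), beside 22.6% and 19.2% of all genes. The median log2 change of the 129 was 0.16. Among other factors of the large subunit, 20 of 47 rose (42.6%) and 0 fell. MAK16, LAS1L and RSL24D1, which act in pre-60S assembly or its RNA cutting, rose by 0.81, 0.78 and 0.77 (adjusted p = 7.02e-05, 7.18e-05 and 0.000113). Among other factors of the small subunit, 15 of 42 rose (35.7%) and 3 fell (7.14%). HEATR1, FCF1 and UTP25 rose by 0.86, 0.84 and 0.77 (adjusted p = 7.18e-05, 5.54e-05 and 6.18e-05), and in the authors' deposited table by 0.77, 0.24 and 0.29.

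Of 11 other snoRNP and snoRNP assembly genes, 4 rose and 2 fell (36.4% and 18.2%, beside 22.6% and 19.2% of all genes). TGS1, which methylates the cap of some small nucleolar RNAs, rose by 0.81 (adjusted p = 0.000182). NUFIP1, an assembly factor of box C/D particles, rose by 0.62 (adjusted p = 0.000846). SHQ1, a chaperone of DKC1, fell by 0.54 on the log2 scale (adjusted p = 0.0243). SHQ1 was lost in 3 of 10 fits without 1 replicate, and had -0.32 without the DMSO 24 h replicate of array 1 (adjusted p = 0.092). In the authors' deposited table TGS1, NUFIP1 and SHQ1 changed by 0.45, 0.20 and -0.27, and with the mean of all its probes TGS1 had 0.32 (adjusted p = 0.0489). Of 16 other genes of the RNA polymerase I machinery, 4 rose (25%) and 2 fell (12.5%). The subunits POLR1F and POLR1G rose by 0.63 and 0.42, and POLR2E, a subunit common to the nuclear polymerases, fell by 0.47 on the log2 scale (adjusted p = 0.000629, 0.00395 and 0.00604). POLR1F, POLR1G and POLR2E lay at 0.39, 0.20 and -0.11 in the authors' deposited table, and POLR2E did not pass without the arrays whose titles end in b (-0.33, adjusted p = 0.118). The RNA exosome, which trims ribosomal RNA ends, had 6 of 13 genes that rose (46.2%) and 1 that fell (7.69%). EXOSC2 and EXOSC5 rose by 0.53 and 0.50 and the exosome's helicase MTREX by 0.38 (adjusted p = 0.00529, 0.0029 and 0.0113, the last 0.0572 without the DMSO 48 h replicate of array 3). Of 15 targets of p53, a factor known to be stabilised when ribosome assembly is disturbed, 5 rose and 0 fell in the mean effect. The share that rose was 33.3%, beside 22.6% of all genes, and 19.2% of all genes fell. GDF15, XPC and RRM2B rose by 0.58, 0.54 and 0.44 (adjusted p = 0.00398, 0.000331 and 0.00219). The median log2 change of these 15 targets was 0.04, and with the mean of all its probes RRM2B had an adjusted p of 0.188. Its change was 0.20 in the authors' deposited table.

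**Figure D4:**
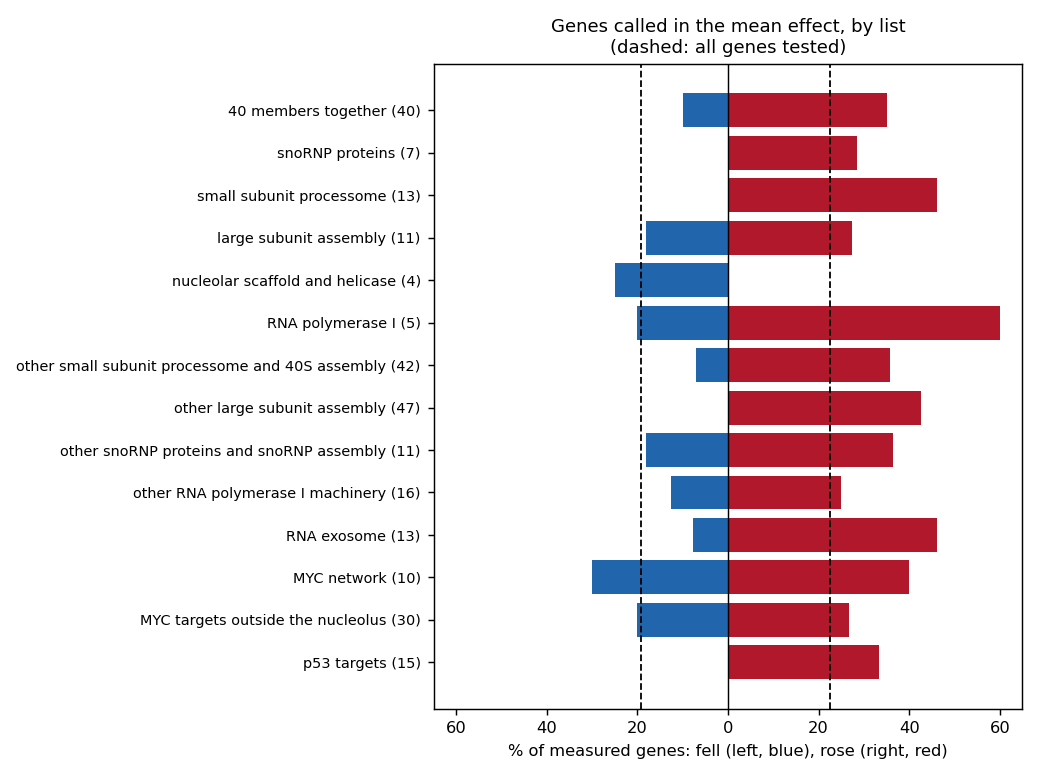
Share of measured genes that rose (red, right) and fell (blue, left) in the mean effect, in percent, for the 40 members, their 5 role groups and other lists, with the number measured in parentheses. Dashed lines mark the shares over all 11679 genes, 22.6% and 19.2%. The scaffold and helicase group has no riser, and the snoRNP, small subunit, other large subunit and p53 target lists have no faller.

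The members had 63 annotated probes, all of which passed the filter. Tested probe by probe, 17 rose and 6 fell in the mean effect, beside 16.5% and 16.7%, together 33.2%, of the 22158 probes tested (adjusted over those probes). At 24 h 6 of the 63 probes rose and 4 fell, beside 8.8% and 8.32% of all probes tested. At 48 h 8 of the 63 rose and 2 fell, beside 9.44% and 9.25% of all probes tested. Of 15 members with more than 1 probe, 6 had probes of both signs: GAR1, NOP56, NOP14, POLR1C, NOL6 and TSR1. GAR1, which binds box H/ACA RNAs with DKC1, was the sole member with probes that passed in opposite directions. From the brightest to the dimmest, its probes had log2 changes of 0.10, 0.44, -0.63 and -0.21 (adjusted p = 0.429, 0.00448, 0.000821 and 0.232). The brightest NOP56 probe had a log2 change of -0.12, while the other two rose by 0.29 and 0.35 (adjusted p = 0.0294 and 0.0264). A less bright probe of NOP14 rose by 0.53 (adjusted p = 0.0076), beside -0.11 for the brightest.

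For POLR1C the less bright probe had -0.18, and with the mean of both probes its change was 0.10 (adjusted p = 0.506). For NOL6 the less bright probe had -0.15, and with the mean of both probes its change was 0.11 (adjusted p = 0.44). The less bright TSR1 probe, detected on 3 arrays, had -0.12, beside 0.33 for the brightest. Members with probes of 1 sign included POLR1B, whose probes both rose, by 0.62 and 0.56. The 3 UBTF probes had -0.46, -0.35 and -0.21, of which the first passed. The 4 NHP2 probes lay between 0.03 and 0.06. The less bright LYAR probe fell by 0.39 on the log2 scale (adjusted p = 0.00522), and the less bright NCL probe had -0.52 ± 0.21 (adjusted p = 0.0824).

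**Figure D5:**
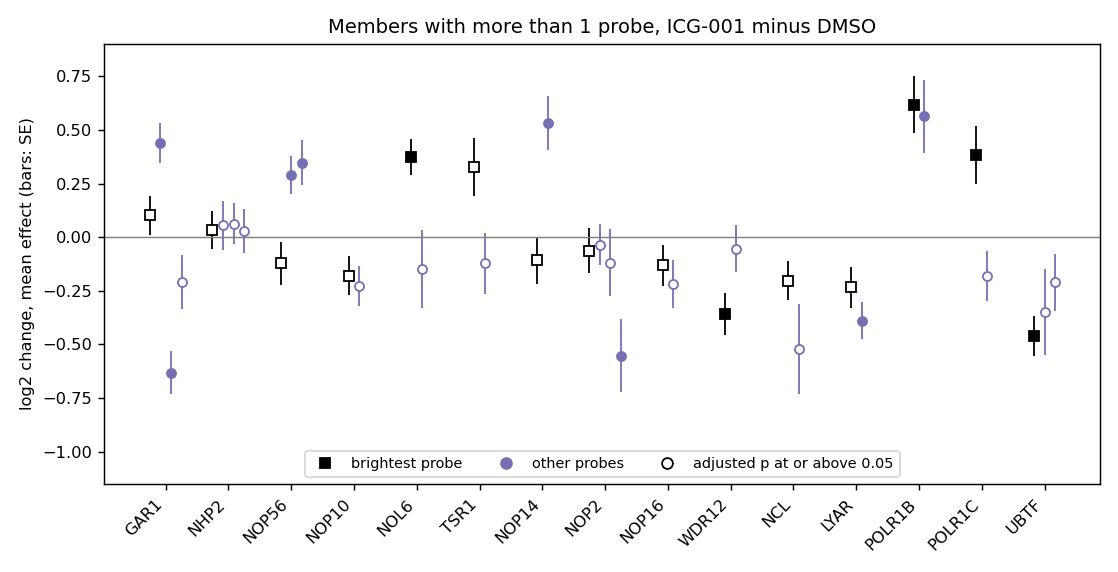
Log2 change in the mean effect, ICG-001 minus DMSO, of each probe of the 15 members with more than 1 probe. Squares are the brightest probe, which stands for the gene, and circles the others. Bars are SE and open symbols have an adjusted p at or above 0.05. GAR1 has a riser at 0.44 and a faller at -0.63, and all probes of UBTF lie below 0.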

How the data were processed

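Total RNA was amplified, biotin-labelled and hybridised to Illumina bead arrays, per the labels' protocols. The authors deposited a table of non-normalized intensities of 47323 probes, each with a detection p-value per the file headers, and a table of normalized values on a scale close to log2. The submitters' processing notes name lumi. Its version, its settings and the filter behind the second table were not given in the sources used here. Precision is limited by the number of arrays.

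The function neqc of limma 3.58.1 (R 4.3.3) corrected the deposited intensities for background, using the detection p-values, and applied an offset of 16, quantile normalization and log2. Probes were kept if 3 or more arrays had a detection p-value under 0.05 (22158), symbols were updated through RefSeq gene identifiers, and the brightest probe stood for each of 11679 genes. Arrays sharing a title number were averaged, giving 10 replicates. A means model over the 4 groups was fitted with lmFit and eBayes (6 residual degrees of freedom), with Benjamini-Hochberg adjustment, two-sided, threshold 0.05. The code of the fit was tested on simulated independent normal values, which hold no array differences and no normalization step.

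The members, the other gene lists and the tests were chosen with earlier results of these data known. Replicate values were given for the 8 largest rises and falls past the threshold in the mean effect, and for NCL, FBL, POLR1A, POLR1B, UBTF, RRN3 and MYC whatever their result, and of other lists up to 3 genes with the smallest p were named. The alternatives were other background, scaling, filter and probe choices, other uses of the paired arrays, and each replicate left out. Promoter windows are those of RefSeq.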

Additional observations from a re-analysis of the deposited data

Results flagged for a closer look

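In the 4 ICG-001 arrays at 24 h, BOP1 had a log2 signal of 12.47 on array 3, while the other arrays lay close to 12.39. The gap to the nearest array was 0.977 of the whole range, above Dixon's limit of 0.829 for 4 arrays. It was the sole such array among 30 groups of 4 arrays tested for 15 genes, and chance gives about 1 in 20. All 4 values were above every DMSO value of BOP1 at 24 h. Arrays 1 and 2 share a title number and count as 1 replicate elsewhere, so the 4 arrays may not be independent, as that limit assumes.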

How the results depend on the processing

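No paired analysis was possible because no title number is shared between groups. Of the members called, 1 of 9 at 24 h, 1 of 9 at 48 h and 8 of 18 in the mean effect kept their call under every alternative run (24, 24 and 23). No called member reversed its sign under any of them. Leaving out 1 replicate gave 3 to 8 members called at 24 h, 4 to 10 at 48 h and 12 to 17 in the mean effect. Each of those fits that called fewer members than the fit with all replicates also called a smaller share of all genes. Without 1 ICG-001 replicate, 7.5% to 20% of members passed at 24 h, beside 17.2% to 23% of all genes. At 48 h these shares were 12.5% to 15%, beside 17.9% to 25.2%. With every array as a replicate 16 members passed at 24 h (beside 33.7% of all genes). With a term for titles that end in b, 17 passed at 24 h and 15 at 48 h (beside 39.2% and 38.7%). With the mean of all probes of a gene 5 passed at 48 h (beside 24.4%). The causes were not tested. Under the stricter filter on dim probes, UTP20 and POLR1A had no value. Signal near background limits UTP20, WDR74, POLR1A and POLR1B: without background correction the changes of UTP20, WDR74 and POLR1B in the mean effect were 0.22 each and still passed.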
